A study of Mus musculus with 6 samples.

Results

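The interleukin-7 receptor and the JAK-STAT5 pathway below it were read as 10 genes: the receptor chains Il7r and Il2rg, the kinases Jak1 and Jak3, the transcription factors Stat5a and Stat5b, the feedback inhibitors Socs1, Socs3 and Cish, and the target kinase gene Pim1. The family was chosen by measured values of these arrays, the KO minus WT difference of Il7r and the levels beside it. Every array probe whose only gene symbol in the platform annotation was one of these was taken, 18 of 45281 probes in all. They covered 9 of the 10 genes, of 19057 genes with a named probe, and Il2rg is not analysed here. The samples were mouse T-cell acute lymphoblastic leukemias (T-ALL, which arises from T-cell precursors) of the genotype ΔE-NOTCH1 Rosa26 Cre-ERT2 Hes1flox/flox. There were 3 samples in which 36 hours of 4-hydroxy-tamoxifen had been used to delete Hes1 (KO), and 3 samples given ethanol for 36 hours with Hes1 left intact (WT). Both groups therefore carried the activated NOTCH1 transgene, the loxP-flanked Hes1 alleles and a Cre recombinase made from the ubiquitous Rosa26 locus. By the treatment labels, the WT samples were given ethanol and not the drug. Loss of Hes1, exposure to the drug and active Cre thus came together in KO and cannot be told apart for any gene below.

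The leukemias came from lineage-depleted bone marrow transduced with a retrovirus and grown in lethally irradiated NRG mice. NRG mice lack Rag1 and Il2rg and so have no T, B or NK cells of their own, but they keep myeloid and stromal cells. The labels describe both cultured cells and tumours of treated recipients (5 mg tamoxifen per mouse) and do not settle which RNA was used. They say that RNA was isolated in triplicate and call the replicates biological without naming separate leukemias or mice, so the errors and p-values given here cover only how far these samples differ, and some of that may be technical. In RNA from a mixture of cells, fewer cells of a type and less RNA per cell cannot be told apart.

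Interleukin-7 is a cytokine that keeps early T cells alive and dividing. It binds a receptor made of the IL-7 receptor alpha chain, encoded by Il7r, and the common gamma chain, encoded by Il2rg. JAK1 sits on the alpha chain and JAK3 on the gamma chain. Once active, they phosphorylate STAT5A and STAT5B, which then move to the nucleus and switch on target genes. Cish, Socs1 and Socs3 are such targets, and their proteins damp the receptor in return. Pim1, another target, encodes a serine/threonine kinase that favours survival. In T-cell precursors Il7r is also a known target gene of NOTCH1, and activating mutations of this pathway occur in human T-ALL. The question asked of the arrays was whether the feedback genes followed the difference seen in Il7r.

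The sequences in which the receptor and the feedback genes can be compared are their promoters, 250 bases before and 50 after the transcription start as RefSeq gives it for GRCm38.p6. All 10 genes had at least 1 such window, 13 windows in all. The binding motif of STAT proteins, TTCNNNGAA, which reads the same on both strands, stood in 3 of the 13 windows, against 8.3% of all 32851 windows. These 3 windows belonged to Il7r, Socs3 and Cish. They are shown 5′ to 3′ along each gene with the motif in capitals. The Il7r window is chr15:9529827-9530126 (minus strand), the Socs3 window chr11:117969317-117969616 (minus strand) and the Cish window chr9:107296409-107296708 (plus strand).
Il7r: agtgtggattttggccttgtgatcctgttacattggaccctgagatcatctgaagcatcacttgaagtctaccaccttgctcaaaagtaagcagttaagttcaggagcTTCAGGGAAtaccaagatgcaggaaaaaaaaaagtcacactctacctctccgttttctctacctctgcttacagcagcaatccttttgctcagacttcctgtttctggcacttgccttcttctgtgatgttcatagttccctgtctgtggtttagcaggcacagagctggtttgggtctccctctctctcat
Socs3: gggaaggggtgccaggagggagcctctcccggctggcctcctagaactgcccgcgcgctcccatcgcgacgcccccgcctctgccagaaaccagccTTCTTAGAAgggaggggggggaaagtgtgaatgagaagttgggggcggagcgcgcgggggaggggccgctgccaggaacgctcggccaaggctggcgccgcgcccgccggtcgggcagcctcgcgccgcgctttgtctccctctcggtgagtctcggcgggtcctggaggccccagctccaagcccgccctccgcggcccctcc
Cish: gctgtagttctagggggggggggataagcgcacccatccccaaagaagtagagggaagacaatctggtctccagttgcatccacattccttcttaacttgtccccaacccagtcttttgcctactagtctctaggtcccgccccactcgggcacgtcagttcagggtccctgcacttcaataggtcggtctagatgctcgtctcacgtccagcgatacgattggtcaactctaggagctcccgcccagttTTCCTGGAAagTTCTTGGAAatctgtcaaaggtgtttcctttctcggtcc

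The Cish window held 2 copies, at bases 251 to 259 and 262 to 270 counted from its 5′ end. The Il7r window held 1 copy at bases 109 to 117 and the Socs3 window 1 copy at bases 97 to 105. Motifs bound by Hes proteins were searched on both strands as CACGNG and CACNAG, and the sequence CACGAG, found in a Pim1 window, matches both. The CACGNG motif stood in 3 of the 13 windows, of Jak1, Stat5b and Pim1, against 27.5% of all windows. The CACNAG motif stood in 6 of the 13 windows, of Il7r, Il2rg, Jak1, Stat5a, Socs1 and Pim1, against 42.5% of all windows. TGGGAA, the core motif of the NOTCH partner RBPJ, stood in 2 of the 13 windows, of Il2rg and Socs1, against 25.6%. A match describes the letters in these windows and does not show that a factor binds there.

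Levels are given as normalised log2 intensities, in which 1 unit is a doubling of probe brightness after background correction. They compare arrays for 1 probe and not probes with each other. A probe counted as detected on an array when its detection p was under 0.05, and 13 of the 18 probes, from 7 genes, were detected on at least 3 of the 6 arrays and kept. Hes1 itself had log2 intensities of 4.51, 4.44 and 4.66 in KO, where it was detected on 0 of 3 arrays, against 10.97, 11.15 and 10.82 in WT. It was at least 53.5-fold lower in KO (adjusted p 1.0e-06 in limma), and whether its probe lies in the deleted part is not stated. Mean raw intensity was 520 to 687 on KO arrays and 703 to 713 on WT arrays (two-sided exact permutation p 0.1, the smallest that 3 against 3 allows), and KO replicate 1 was the dimmest. Of 12 T-lineage marker genes with a probe, 9 were detected on all arrays, Cd3d, Cd3e, Cd3g, Cd247, Cd8b1, Thy1, Cd2, Ptcra and Bcl11b. Cd4 was detected on some arrays, and Cd8a and Cd5 on none. None of the B-cell (0 of 3), myeloid (0 of 7), erythroid (0 of 2) or NK-cell (0 of 3) marker genes was detected on all arrays. Ms4a1 (B-cell), Csf1r (myeloid) and Klrb1c (NK-cell) were detected on some. Pecam1, on the stromal and endothelial list, was detected on all arrays, Col1a1 on none, and Col1a2, Cdh5 and Kdr on some. The summed linear level of that list was 973 to 1298 in KO and 725 to 902 in WT. Of its 5 genes only Pecam1 was detected on all arrays, so this sum does not show a difference of the list as a whole. The same sum for the myeloid list was 187 to 194 in KO and 170 to 180 in WT. For the NK-cell list it was 77.1 to 81.3 in KO and 87.4 to 95.2 in WT. The sums of the other lists overlapped. They were 115022 to 120791 in KO and 107601 to 116093 in WT for the T-lineage list. B-cell sums were 80.4 to 90.1 in KO and 79.4 to 89.2 in WT, and erythroid sums 44.7 to 51.5 and 47.2 to 51.1. No array detected 6 of 7 myeloid, 2 of 3 NK-cell, 2 of 3 B-cell and 2 of 2 erythroid genes. Those sums lie near background. The part of these cells in the results below was not tested.

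Il7r had higher values in KO. Its brightest probe, ILMN_2680827, measured 11.44, 11.33 and 11.47 in KO against 10.80, 10.69 and 10.79 in WT. All 3 KO values lay above all 3 WT values, and each group was tight, with means of 11.41 ± 0.07 in KO and 10.76 ± 0.06 in WT (SD, n = 3 each). The difference, KO minus WT, was 0.65 ± 0.10 (SE, log2), a 1.57-fold higher level. The raw intensities of this probe, before any normalisation, were 2142, 2539 and 3114 in KO and 2100, 1924 and 2031 in WT. They also did not overlap, although KO replicate 1, the dimmest array, lay only just above the highest WT array. Since the gene family was chosen with this difference known, its values, intervals and threshold counts stand as a description and support nothing.

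The other Il7r probes did not all show a difference of that size. ILMN_1255750 measured 6.89, 6.86 and 6.79 in KO against 6.11, 5.91 and 6.11 in WT, a difference of 0.80 ± 0.11 (SE, log2). ILMN_1237567 measured 7.68, 7.79 and 7.87 in KO against 7.59, 7.03 and 7.2 in WT, a difference of 0.51 ± 0.16. In both probes the groups were apart, in the second only by the gap between KO replicate 1 and WT replicate 1. Its raw intensities overlapped, at 269, 331 and 381 in KO against 336, 270 and 283 in WT. ILMN_2659739 was the most scattered, at 7.80, 8.76 and 8.31 in KO and 8.27, 7.56 and 7.91 in WT, with a difference of 0.38 ± 0.27 and groups that overlapped. The fifth probe, ILMN_2975500, was detected on 0 of 6 arrays, at raw intensities of 123 to 146 in KO and 127 to 152 in WT. In total 4 of 5 Il7r probes were detected, all 4 had a higher mean in KO, and in 3 of them the groups did not overlap. Per the platform annotation, ILMN_1255750 and ILMN_1237567 were designed on cDNA records outside the RefSeq mRNAs and the other 3 on RefSeq mRNA records. The position of each probe in the transcript is not analysed here.

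**Figure D1:**
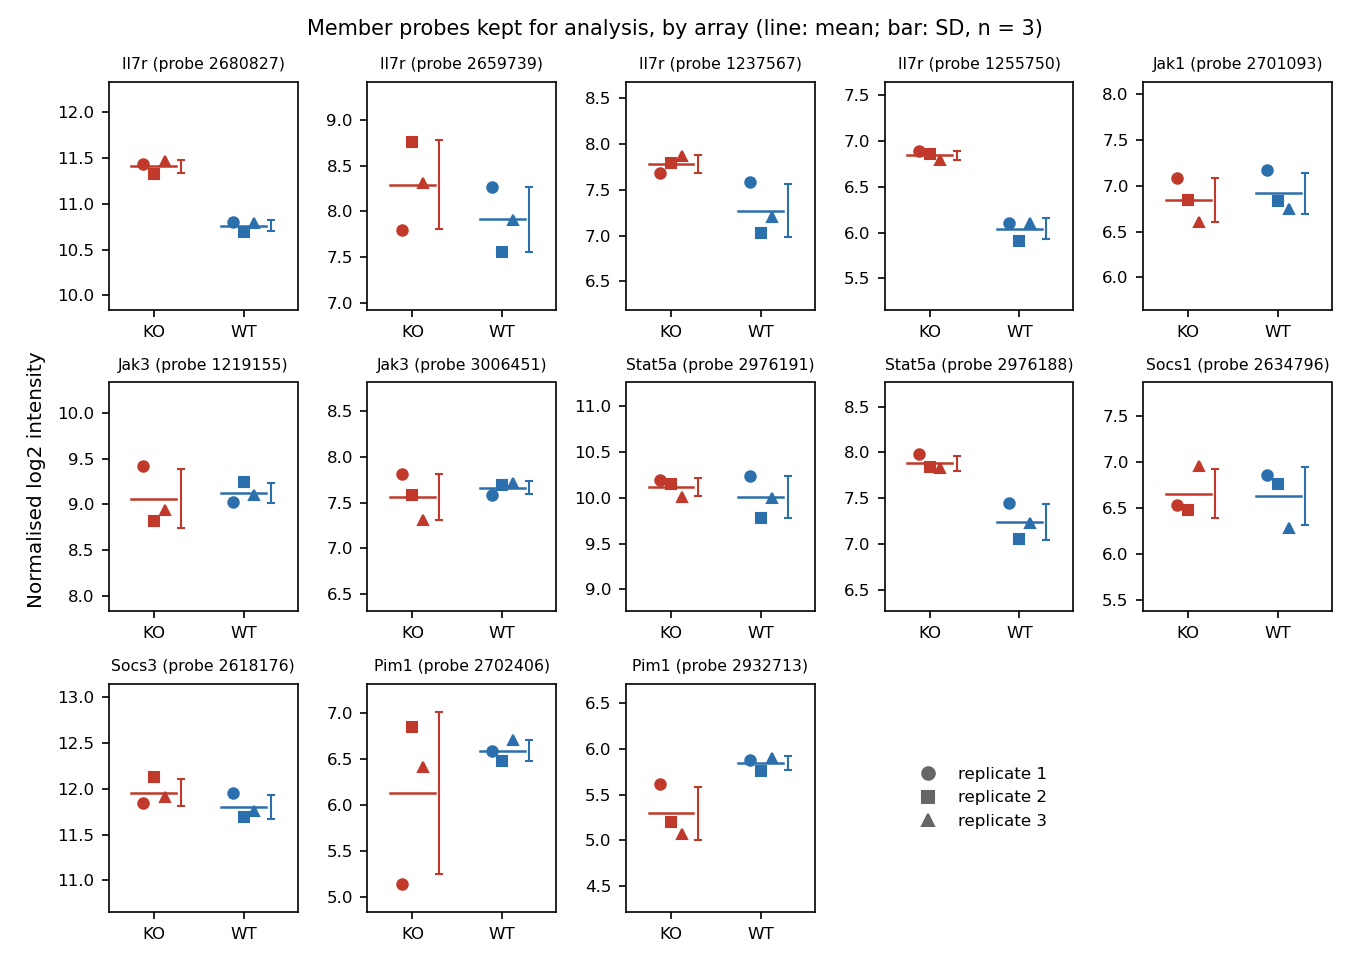
Normalised log2 intensity (vertical axis) of each of the 13 kept probes on the KO arrays (left, red) and the WT arrays (right, blue); symbols give the replicate number, horizontal lines the mean and bars the SD (n = 3). Every panel spans the same number of log2 units. KO and WT are apart in 3 Il7r probes, in 1 of 2 Stat5a probes and, downwards, in 1 of 2 Pim1 probes.

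The kinases of the receptor overlapped between groups in normalised values but not in raw intensity. Jak1, whose product starts the signal from the alpha chain, measured 7.09, 6.84 and 6.61 in KO against 7.17, 6.83 and 6.75 in WT with probe ILMN_2701093, and its values overlapped. The difference was -0.07 ± 0.17 (SE, log2). The other Jak1 probes, ILMN_1213278 and ILMN_2552473, were detected on 0 of 6 arrays. Jak3, the kinase of the gamma chain, measured 9.42, 8.82 and 8.94 in KO against 9.02, 9.24 and 9.10 in WT with probe ILMN_1219155, a difference of -0.06 ± 0.17. KO replicate 1 was the highest of the 6 arrays and the other KO arrays the lowest. KO replicate 1 was also the highest with the second Jak3 probe, ILMN_3006451, which measured 7.81, 7.58 and 7.31 in KO against 7.58, 7.69 and 7.72 in WT, a difference of -0.10 ± 0.15. Raw intensities were lower on every KO array than on every WT array, as were the array means. They were 220, 233 and 233 in KO against 282, 251 and 242 in WT for Jak1. They were 633, 541 and 656 in KO against 696, 787 and 716 in WT for the first Jak3 probe, and 284 to 303 in KO against 334 to 353 in WT for the second. The 95% intervals of limma ran from -0.46 to 0.33 for Jak1 and from -0.46 to 0.34 for Jak3, so smaller differences in either direction could not be seen with 3 arrays a group.

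Of the transcription factors, Stat5a was detected by both of its probes and these disagreed. The brighter, ILMN_2976191, measured 10.20, 10.15 and 10.01 in KO against 10.24, 9.78 and 10.00 in WT. Its groups overlapped, since WT replicate 1 was the highest of all arrays, and the difference was 0.11 ± 0.14 (SE, log2). ILMN_2976188 measured 7.98, 7.84 and 7.83 in KO against 7.45, 7.05 and 7.23 in WT. Here the groups were apart, with a difference of 0.64 ± 0.14, close in size to that of Il7r. The raw intensities of this probe overlapped, at 305, 337 and 373 in KO against 314, 272 and 288 in WT. Both probes were designed on RefSeq mRNA records. The value of Stat5a depends on the probe, and the mean of both gave 0.37. Stat5b had the single probe ILMN_2746194, with raw intensities of 132, 140 and 140 in KO and 142, 140 and 153 in WT and detection p between 0.2276 and 0.687. It was detected on 0 of 6 arrays, so no difference is given for it.

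The KO and WT values overlapped for both feedback inhibitors that were detected. Socs3, which blocks JAK activity at cytokine receptors, measured 11.84, 12.13 and 11.91 in KO against 11.95, 11.69 and 11.76 in WT (probe ILMN_2618176). WT replicate 1 lay above KO replicates 1 and 3, and the difference was 0.16 ± 0.13 (SE, log2), with a 95% interval of -0.14 to 0.46. Socs1, an inhibitor that binds JAKs directly, measured 6.53, 6.48 and 6.96 in KO against 6.86, 6.76 and 6.28 in WT (probe ILMN_2634796). Its replicates were spread over about the same range in both groups, and the difference was 0.03 ± 0.20, with a 95% interval of -0.44 to 0.49. Whether the differences of Socs1 and Socs3 differ from that of Il7r was not tested, because the genes were chosen for this comparison.

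Cish, the STAT5 target whose promoter window held the paired motif shown above, was not detected. The raw intensities of its single probe, ILMN_2718330, were 124, 141 and 137 in KO and 149, 135 and 143 in WT. Detection p was 0.6058, 0.438 and 0.7874 in KO and 0.187, 0.7372 and 0.5224 in WT. In neither group did the probe stand above background, and no difference could be measured. The bead arrays therefore give no reading of Cish in these leukemias, either for KO or for WT, and a probe that hybridises poorly and a transcript that is scarce cannot be told apart with 1 probe.

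Pim1 had lower means in KO with both probes, and the size of the difference for the brighter probe varied with 1 array and with the background step. ILMN_2702406 measured 5.14, 6.85 and 6.41 in KO against 6.59, 6.48 and 6.71 in WT. KO replicate 1 lay far below the other arrays and was not detected there (detection p 0.0641), while KO replicate 2 was the highest of all. The difference was -0.46 ± 0.39 (SE, log2) and was 0.03 without KO replicate 1. It was -0.15 without background correction and with the authors' log2 values, -0.23 with normexp at offset 50, and -0.19 with array weights. ILMN_2932713 measured 5.62, 5.20 and 5.07 in KO against 5.88, 5.76 and 5.90 in WT, a difference of -0.55 ± 0.16. All KO values lay below all WT values, at levels near background: the probe was detected on 1 of 3 KO arrays and 3 of 3 WT arrays, with raw intensities of 155 to 163 in KO and 184 to 191 in WT. The WT arrays alone met the filter of 3 arrays, so this probe was kept through the group where it was higher. Its lower KO values are a description and lend the other probe no support. In KO replicate 1 the 2 probes went opposite ways within the group, lowest of the KO arrays with the first and highest with the second.

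**Figure D2:**
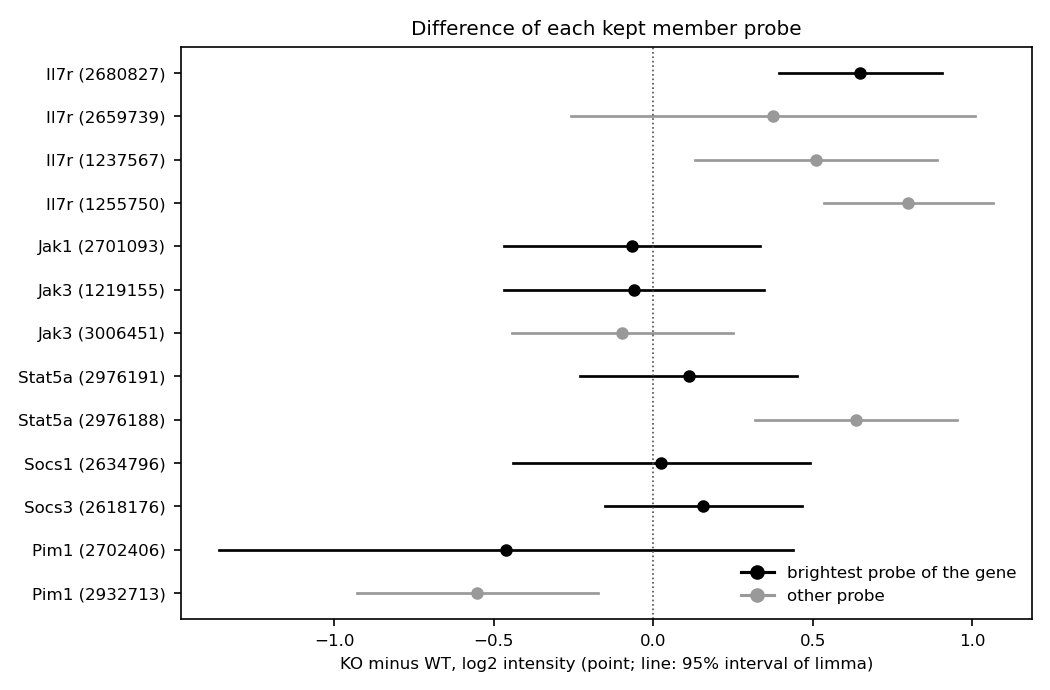
Difference between KO and WT in log2 intensity (horizontal axis; right of the dotted line means higher in KO) for each of the 13 kept probes, with the 95% interval of limma fitted to every detected probe. Black marks the brightest probe of a gene and grey its other probes; the Il7r probes lie between 0.38 and 0.80, those of Jak1, Jak3, Socs1 and Socs3 within 0.16 of 0, those of Stat5a at 0.11 and 0.64, and those of Pim1 at -0.46 and -0.55.

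Read in the limma fit over all 11241 features (1 probe a gene), 0 of the 7 members tested passed an adjusted p of 0.05, and 1, Il7r, had an unadjusted p under 0.05. Over all features 0.0623% passed the adjusted threshold, 0.0356% higher and 0.0267% lower in KO, and 9.27% the unadjusted threshold. The groups did not overlap in 1 of the 7, again Il7r, against 16.2% of all features, 8.49% higher and 7.69% lower in KO. They did not overlap in 5 of the 13 kept probes, 4 higher and 1 lower in KO, against 15.4% of all kept probes, 7.54% higher and 7.82% lower. Because this contrast belongs to the rule that set out the members, nothing is read from these counts. By value, 4 members were higher in KO (Il7r, Stat5a, Socs1 and Socs3) and 3 lower (Jak1, Jak3 and Pim1). The median difference was 0.03 on the log2 scale, against 0.0026 over all features, and the median size without sign 0.11, against 0.14. These cover the 7 genes that were detected and not Il2rg, Stat5b or Cish.

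The differences of single members moved with the arrays and with the scaling. Over the fits that left out 1 array, Il7r ran from 0.61 to 0.69, Socs3 from 0.07 to 0.23, Socs1 from -0.15 to 0.14, Stat5a from -0.0021 to 0.23, Jak1 from -0.19 to 0.06, Jak3 from -0.24 to 0.06 and Pim1 from -0.83 to 0.03. With array weights, which let arrays count unequally, Socs1 measured 0.30, Jak3 -0.18, Jak1 -0.12 and Stat5a 0.06. With arrays scaled to a common median instead, the median of all features moved to -0.17, and Il7r measured 0.43. Relative to that median Il7r was 0.61 higher, Socs3 0.12, Socs1 0.06 and Stat5a 0.08, while Jak1 was at -0.05, Jak3 at -0.08 and Pim1 at -0.38. Before that median is taken off, Stat5a, Socs1 and Socs3 measured -0.09, -0.11 and -0.05 with median scaling.

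**Figure D3:**
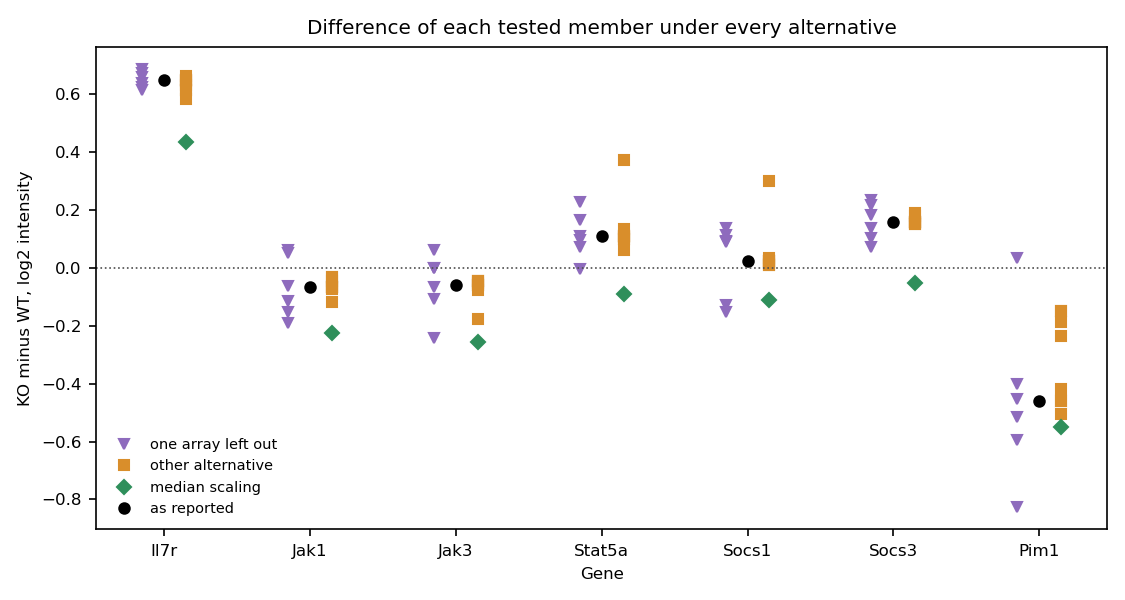
Difference between KO and WT in log2 intensity (vertical axis; above 0 means higher in KO) of each of the 7 tested members, as reported (black circles), with 1 array left out (violet triangles), with median scaling (green diamonds) and under the other alternatives (orange squares). Every Il7r value lies at 0.43 or above, and Pim1 runs from -0.83 to 0.03.

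The genes most like Il7r over the 6 arrays were taken as those with the smallest root mean square difference after each gene was centred on its own mean. They were Senp5 (0.05 log2 units), which encodes a SUMO protease, Pou2af1 (0.08), a coactivator of octamer-binding factors known from B cells, Cnnm2 (0.08), linked to magnesium transport, Rgma (0.09), a repulsive guidance molecule, and Plpp1 (0.09), a lipid phosphate phosphatase. The median over all 8835 other named genes was 0.37. Senp5, the closest, measured 7.0, 6.92 and 7.09 in KO against 6.51, 6.39 and 6.41 in WT. Among the members, Socs3 stood closest to Il7r at 0.28, at rank 1349, and Pim1 farthest at 0.77. Stat5a was at 0.30, Socs1 at 0.39, Jak3 at 0.405 and Jak1 at 0.41. These distances include the KO minus WT difference by which the family was chosen. They stand as a description and support nothing about which genes follow Il7r.

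Other genes of the pathway were read from 5 lists with 55 genes, of which 40 were tested. In limma 0 rose and 0 fell at an adjusted p of 0.05, and 3 had an unadjusted p under 0.05, Bcl6, Bcl2 and Ptpn2. Over all features 0.0623% passed the adjusted threshold and 9.27% the unadjusted threshold, so 3 of 40 is near the background. The groups did not overlap in 7 of the 40, against 16.2% of all features, which is near the background too. By value 22 were higher and 18 lower in KO, with a median difference of 0.03.

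All 10 genes described as targets of STAT5 or of IL-7 were tested, with 6 higher and 4 lower values and a median of 0.03. Bcl6, a repressor that STAT5 is known to hold down, measured 7.68, 7.80 and 7.70 in KO against 8.48, 8.13 and 8.15 in WT. All KO values were lower, with a difference of -0.53 ± 0.13 (SE, log2) and a limma adjusted p of 0.289. Bcl2, the survival gene that IL-7 is known to maintain in T cells, measured 9.08, 9.05 and 9.23 in KO against 8.86, 8.84 and 8.74 in WT. Its difference was 0.30 ± 0.11 (adjusted p 0.452 in limma), and its 5 other detected probes ran from -0.03 to 0.53, so they disagree. Ccnd2, cyclin D2, measured 0.25 ± 0.12 higher (adjusted p 0.596), while its other probe gave 0.02.

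Of 16 further inhibitors of the pathway, 14 were tested, with 4 higher and 10 lower values and a median of -0.03. Ptpn2, a phosphatase that removes phosphate from JAK1, JAK3 and STATs, measured 7.0, 7.19 and 7.0 in KO against 7.30, 7.24 and 7.52 in WT, a difference of -0.29 ± 0.12 (SE, log2; adjusted p 0.539 in limma). Socs2, another STAT5-induced feedback gene, measured 10.00, 10.43 and 10.58 in KO against 10.66, 10.63 and 10.75 in WT, a difference of -0.34 ± 0.16 (adjusted p 0.583). In both genes the KO values were the lower ones without overlap, but neither passed the test. They were the 2 of 14 tested inhibitors whose groups did not overlap, against 16.2% of all features, so nothing is read from it. Socs5 measured 0.22 ± 0.12 (adjusted p 0.632).

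Of 12 cytokine and receptor genes only 4 were tested, all with higher values. Il2ra, the IL-2 receptor alpha chain and itself a known STAT5 target, measured 11.92, 11.63 and 11.65 in KO against 11.45, 11.34 and 11.57 in WT, a difference of 0.28 ± 0.13 (SE, log2; adjusted p 0.576 in limma), while its other probe gave -0.09. Il9r, which pairs with the gamma chain, measured 0.09 ± 0.10 and Il15ra 0.10 ± 0.16. The 3 other detected probes of Il15ra ran from 0.0013 to 0.41. Il7 itself, Tslp, Crlf2, Il2, Il4, Il2rb, Il4ra and Il21r did not reach detection on 3 arrays. Of the 5 other JAK and STAT genes tested, Stat2 measured 0.44 ± 0.24 (adjusted p 0.626), Stat6 0.16 ± 0.13 and Tyk2 0.17 ± 0.16. The 2 other detected probes of Tyk2 gave 0.24 and 0.50. KO replicate 1 was the highest array for Stat2 and Tyk2. The other Stat6 probe gave -0.46, so the probes of this gene disagree.

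Factors described as regulators of Il7r transcription did not pass the test either, 0 of 7 tested. Notch1, the receptor gene whose activated form drives these leukemias, measured 12.64, 11.89 and 12.22 in KO against 12.03, 11.93 and 12.11 in WT, a difference of 0.23 ± 0.19 (SE, log2; adjusted p 0.726 in limma) with overlapping groups. Runx1 measured 0.15 ± 0.14 and Gabpa, a factor known to bind the Il7r promoter, -0.11 ± 0.10. The other detected probe of Runx1 gave 0.14, and those of Gabpa ran from -0.12 to 0.05. By the probe used for each gene the list ran from -0.11 to 0.23. The other kept probes of Ets1 gave -0.51 to -0.07 against 0.07 for the one used, so the probes of this gene disagree; it was singled out after its values were seen. Runx3, Rbpj and Nr3c1 did not reach detection on 3 arrays.

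**Figure D4:**
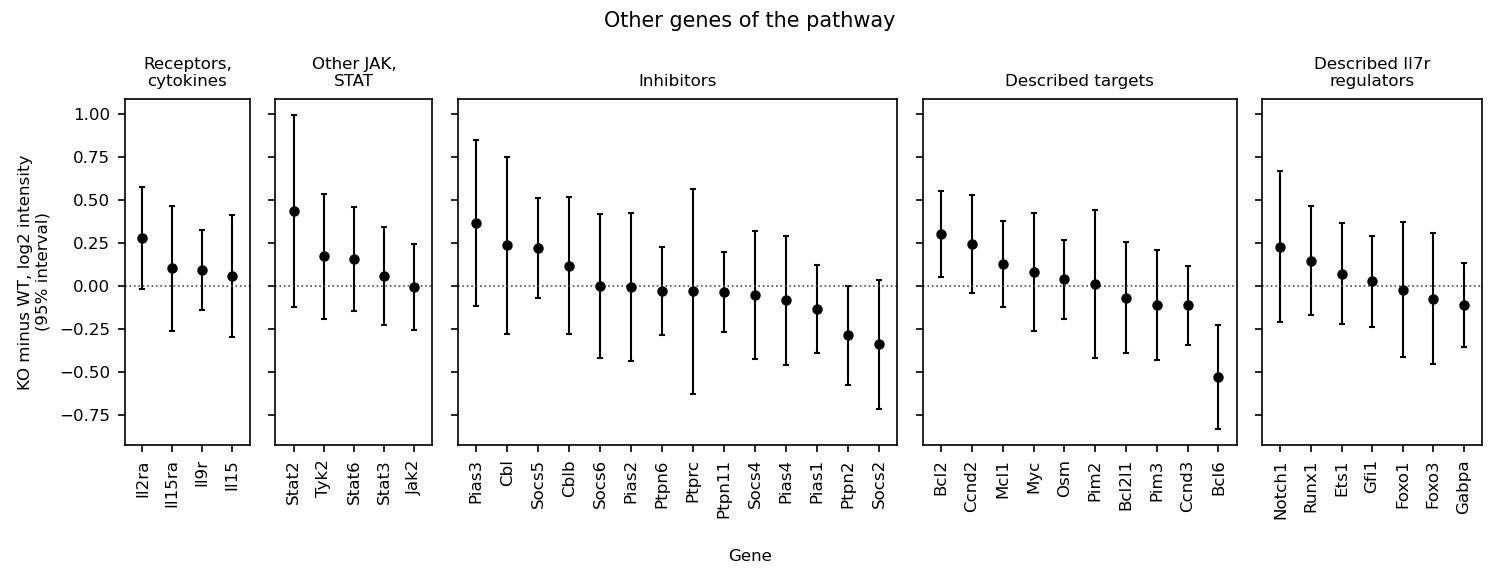
Difference between KO and WT in log2 intensity (vertical axis; above 0 means higher in KO) with its 95% interval for the 40 tested genes of the 5 other lists, ordered by value within each list. The values run from -0.53 for Bcl6 to 0.44 for Stat2, and none passed the test over all features.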

How the data were processed

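RNA of 6 mouse T-ALL samples, 3 KO and 3 WT, was read on Illumina bead arrays after whole-transcriptome amplification of 10 ng RNA per sample, per the labels' protocols. Amplification from so little RNA can distort relative signals. The deposited table held, for every probe and array, an intensity on the linear scale and its detection p-value, per the file headers. They had not been normalised (array medians 133.8 to 153.5). A second table held the authors' log2 values, which equalled quantile-normalised log2 intensities within 5e-05, with medians of 7.202 to 7.2024. No other sample columns were present (0).

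Intensities were background-corrected with moments from the detection p-values (offset 16), quantile-normalised and put on the log2 scale by the neqc function (limma 3.58.1, R 4.3.3). Quantile normalisation hides a shift common to most genes. Of the probes, 34885 had 1 platform symbol, 18 several and 10378 none. Probes with detection p under 0.05 on at least 3 arrays were kept (16287), and the probe with the highest mean stood for a gene, giving 8836 named genes and 2405 unnamed probes. Values of further probes come from the same fit on every kept probe. KO was compared with WT by limma (lmFit, eBayes) with Benjamini-Hochberg adjustment over all 11241 features and no covariates. The "at least" fold of Hes1 sets its mean in WT against a floor on each KO array, the lowest signal of any detected probe there unless the Hes1 probe itself was brighter.

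The members and the lists were chosen with earlier results of these data known. Named genes were all members, list genes past the test, the 3 with the smallest p in each list, and the 5 nearest to Il7r. Steps were tested on simulated data. Alternatives covered background, scaling, the authors' values, filters, probe choice, a replicate block, array weights and each array left out. The number of arrays limits the precision.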

Additional observations from a re-analysis of the deposited data

How the results depend on the processing

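The 7 features past the test were 36 without background correction, 30 with normexp at offset 50, 23 with median scaling, 36 with the authors' log2 values, 17 with detection p under 0.01 on all arrays, 119 with array weights, and 1 to 11 with 1 array left out, highest without KO replicate 1 and 1 without any one WT replicate. The number of members past the test, 0 as reported, was 1, Il7r, without background correction, with normexp at offset 50, with the authors' log2 values and with array weights. It was 0 under the other alternatives, including all 6 that left out an array. Members with an unadjusted limma p under 0.05 numbered 1 as reported. That number was 3 with the mean of a gene's probes, 2 without KO replicate 2, and 1 under the other alternatives. With the mean of a gene's probes, Stat5a at 0.37 ± 0.14 and Pim1 at -0.51 ± 0.17 (SE, log2) joined Il7r, in opposite directions. The other pathway genes past the test numbered 0 throughout. Members with groups apart numbered 1 as reported, 2 with median scaling, 3 with the mean of a gene's probes, and 1 to 3 with 1 array left out (3 when WT replicate 1 was dropped, and 2 when either KO replicate 1 or KO replicate 2 was). The replicate block and array weights leave that number as it is and gave none of their own. Il7r was higher in KO under all 16 alternatives. Pim1 could not be tested with detection p under 0.01 on all arrays.

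Samples with the same replicate number did not deviate together (correlations of -0.10, -0.27 and 0.15 across genes), so the numbers were not taken as pairs. With the replicate block 2 features passed and 0 members. The cause of these moves was not tested. Signal over background limits Cish, Stat5b and Pim1 most.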
